A study of Mus musculus with 24 samples.

Results

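The activator protein 1 (AP-1) genes Fos, Fosb, Fosl1, Fosl2, Jun, Junb, Jund, Batf and Atf3 were followed in primary mouse macrophages given lipopolysaccharide (LPS), 4-hydroxyestrone (4-OHE1) or both. These 9 genes were taken by gene symbol from 2 expression tables of 24537 genes each, 1 table per time, and each symbol was listed with the same transcript at both times. The macrophages were grown from bone marrow of 8-week-old female C57BL/6J mice in 20 ng/mL M-CSF, the growth factor that drives macrophage differentiation, and were plated for treatment on day 7. There were 8 groups of 3 RNA-seq libraries, namely LPS+4-OHE1, LPS alone, 4-OHE1 alone and the vehicle control, each at 6 h and 24 h. LPS is the outer membrane glycolipid of Gram-negative bacteria and is sensed by Toll-like receptor 4. 4-OHE1 is a catechol metabolite of the estrogen estrone and was dissolved in ethanol. The labels state a final 100 ng/mL of LPS and 5 mM of 4-OHE1, but give the same figures for the stocks diluted 1000-fold, so the doses the cells received are uncertain. The labels do not say whether the 3 replicates came from different mice or wells, so p-values reflect only the spread among these libraries, which may be technical.

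AP-1 is a dimer of basic leucine zipper proteins that binds short palindromic DNA elements in promoters and enhancers. Jun proteins pair with each other or with Fos proteins, while Fos proteins need a Jun partner. Batf and Atf3 are relatives that pair with Jun proteins too: Batf lacks a transactivation domain and binds with interferon regulatory factors, and Atf3 is a stress-induced factor that often represses inflammatory genes. In macrophages, Toll-like receptor signalling reaches AP-1 through MAP kinases, which raise transcription of several members and phosphorylate their proteins. The measurements here are of messenger RNA only, so they say nothing of protein level, phosphorylation or binding.

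The promoters of 4 members with opposite patterns are shown here, because at 6 h Jun and Atf3 were far higher in the groups given 4-OHE1, while Junb and Batf were highest under LPS alone. Of the 9 members, 8 had a window in the RefSeq promoter table (GRCm38.p6, the same assembly as mm10), and Fosl1 had none. Each sequence is the 250 bases before the annotated start, read 5′ to 3′ on the gene's strand, and capitals mark a motif match on either strand. The windows are chr4:95052223-95052472 (minus strand), chr1:191183334-191183583 (minus strand), chr8:84978749-84978998 (minus strand) and chr12:85686470-85686719 (plus strand).
Jun: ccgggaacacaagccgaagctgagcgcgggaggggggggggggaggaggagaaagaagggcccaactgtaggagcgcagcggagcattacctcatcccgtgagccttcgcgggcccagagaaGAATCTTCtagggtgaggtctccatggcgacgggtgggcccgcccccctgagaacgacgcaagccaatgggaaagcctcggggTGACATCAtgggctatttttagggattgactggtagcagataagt
Atf3: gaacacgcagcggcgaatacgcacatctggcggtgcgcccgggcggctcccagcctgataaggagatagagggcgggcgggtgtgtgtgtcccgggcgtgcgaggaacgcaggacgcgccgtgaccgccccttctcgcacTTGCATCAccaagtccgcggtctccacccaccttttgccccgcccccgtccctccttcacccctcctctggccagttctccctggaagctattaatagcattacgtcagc
Junb: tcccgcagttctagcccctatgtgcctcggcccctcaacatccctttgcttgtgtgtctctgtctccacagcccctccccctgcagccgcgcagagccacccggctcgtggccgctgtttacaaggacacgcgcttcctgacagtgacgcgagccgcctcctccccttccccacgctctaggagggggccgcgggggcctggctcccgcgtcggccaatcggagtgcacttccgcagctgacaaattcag
Batf: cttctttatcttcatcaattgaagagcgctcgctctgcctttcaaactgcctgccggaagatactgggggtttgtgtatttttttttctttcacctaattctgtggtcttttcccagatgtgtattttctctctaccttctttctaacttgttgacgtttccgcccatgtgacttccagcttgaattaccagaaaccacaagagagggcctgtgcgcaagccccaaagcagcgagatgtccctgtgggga
The capitals in the Jun window are TGACATCA, the Jun-type variant of the AP-1 and cyclic AMP response element, 45 to 38 bases upstream, and the heat shock element pair GAANNTTC, 128 to 121 bases upstream. The capitals in the Atf3 window are TTGCATCA, which is TGATGCAA on the other strand, the core of the amino acid response element bound by ATF4, 110 to 103 bases upstream. Among 32851 mouse promoter windows of the same length, TGACATCA stood in 2.93%, GAANNTTC in 6.69% and TGATGCAA in 0.791%. The Junb and Batf windows held no match to any of the 9 motifs searched on both strands.

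Across all 8 windows, the consensus AP-1 element TGACTCA (in 4.46% of promoters), the cyclic AMP response element TGACGTCA (1.55%), the antioxidant response element TGACNNNGC (10.2%), the interferon-gamma-activated element TTCNNNGAA (7.02%) and the CArG box bound by serum response factor (1.47%) had no match in any member. The kappa B site of NF-kB (3.90% of promoters) was matched in the Fos window 214 to 205 bases upstream, in the Fosb window 188 to 179 bases upstream and in the Fosl2 window 182 to 172 bases upstream, where 2 matches on opposite strands overlap. Fosl2 held GAANNTTC as well, 244 to 237 bases upstream. The start used by the expression tables lay 11 bases from the RefSeq start for Fos and at the same base for the other 7. A match describes the letters in this window and is not evidence of binding, and a window without a match says nothing of sites elsewhere.

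Libraries held 8127155 to 13339193 reads, read from the file headers for 18 libraries and estimated for the 6 given both agents. Levels are FPKM, read fragments scaled to transcript length and to each library's mapped total. All 8 macrophage markers, among them Adgre1, Csf1r and Cd68, had a group mean of at least 1 FPKM in every group, with summed levels of 5497 to 6977 FPKM at 6 h. At 24 h the macrophage sum was 14251 to 15956 FPKM under LPS and 6496 to 7170 FPKM in control. Of the 7 neutrophil markers only S100a8 reached 1 FPKM. Its mean at 24 h was 96.5 FPKM under both agents, 48.8 FPKM under LPS, 9.04 FPKM under 4-OHE1 and 2.75 FPKM in control, while the neutrophil markers Elane, Mpo and Ly6g stayed at or below 0.111 FPKM there. Summed T cell, B cell and erythroid markers stayed at or below 2.03 FPKM in every library, dendritic cell markers at or below 6.46 FPKM and stromal markers at or below 6.04 FPKM. In bulk RNA, fewer cells of a kind and less RNA per cell cannot be told apart. The library of replicate 3 of LPS+4-OHE1 at 6 h stood apart from its group, with a score of 4.27 on the component that carried 63.0% of the variance, against 19.4 and 18.3 for the other libraries of its group.

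Differences were tested with limma on log2(FPKM + 0.5), and a call means an adjusted p (Benjamini-Hochberg, over the 11098 genes tested at 6 h, 11185 at 24 h and 11220 across the times) under 0.05. FPKM as deposited are relative to each library's own total. The median log2 difference of all genes was -0.61 for LPS against control at 6 h and -0.31 at 24 h. With median-of-ratios scaling it was 0.02 at each time. Both forms are given wherever scaling changed a member's call. All 9 members passed the filter of 1 FPKM in at least 3 libraries at each time, but Fosb passed through the groups that contained 4-OHE1: none of its LPS libraries reached 1 FPKM, and 1 control library did at 6 h and 0 at 24 h. Batf at 6 h passed through LPS and control libraries, with 1 of the LPS+4-OHE1 libraries and none of the 4-OHE1 libraries at 1 FPKM. Counts from all libraries as deposited that include a call for Fosb are therefore given without it as well. Counts with scaling, another setting or a library left out cover all 9 members, and a Fosb call in them has the same limit.

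In control macrophages at 6 h, Atf3 was the most abundant member at 79.2 ± 5.42 FPKM (SD, n = 3), followed by Junb at 54.2 ± 6.07 FPKM and Jun at 53.7 ± 0.227 FPKM, whose libraries overlapped. Fos, the classical immediate early partner of Jun, followed at 39.8 ± 2.21 FPKM and Jund at 29.7 ± 3.66 FPKM. Fosl2 (11.1 FPKM) and Fosl1 (5.25 FPKM) were lower, and Batf (1.51 FPKM) and Fosb (0.826 FPKM) were close to the limit of the filter and overlapped. Atf3 had the highest mean in 6 of the 8 groups, and Junb in the other two, LPS at 6 h and LPS at 24 h. At 24 h in the group given both agents, the libraries of Atf3 (127 ± 15.7 FPKM) and Junb (115 ± 7.96 FPKM) overlapped.

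**Figure D1:**
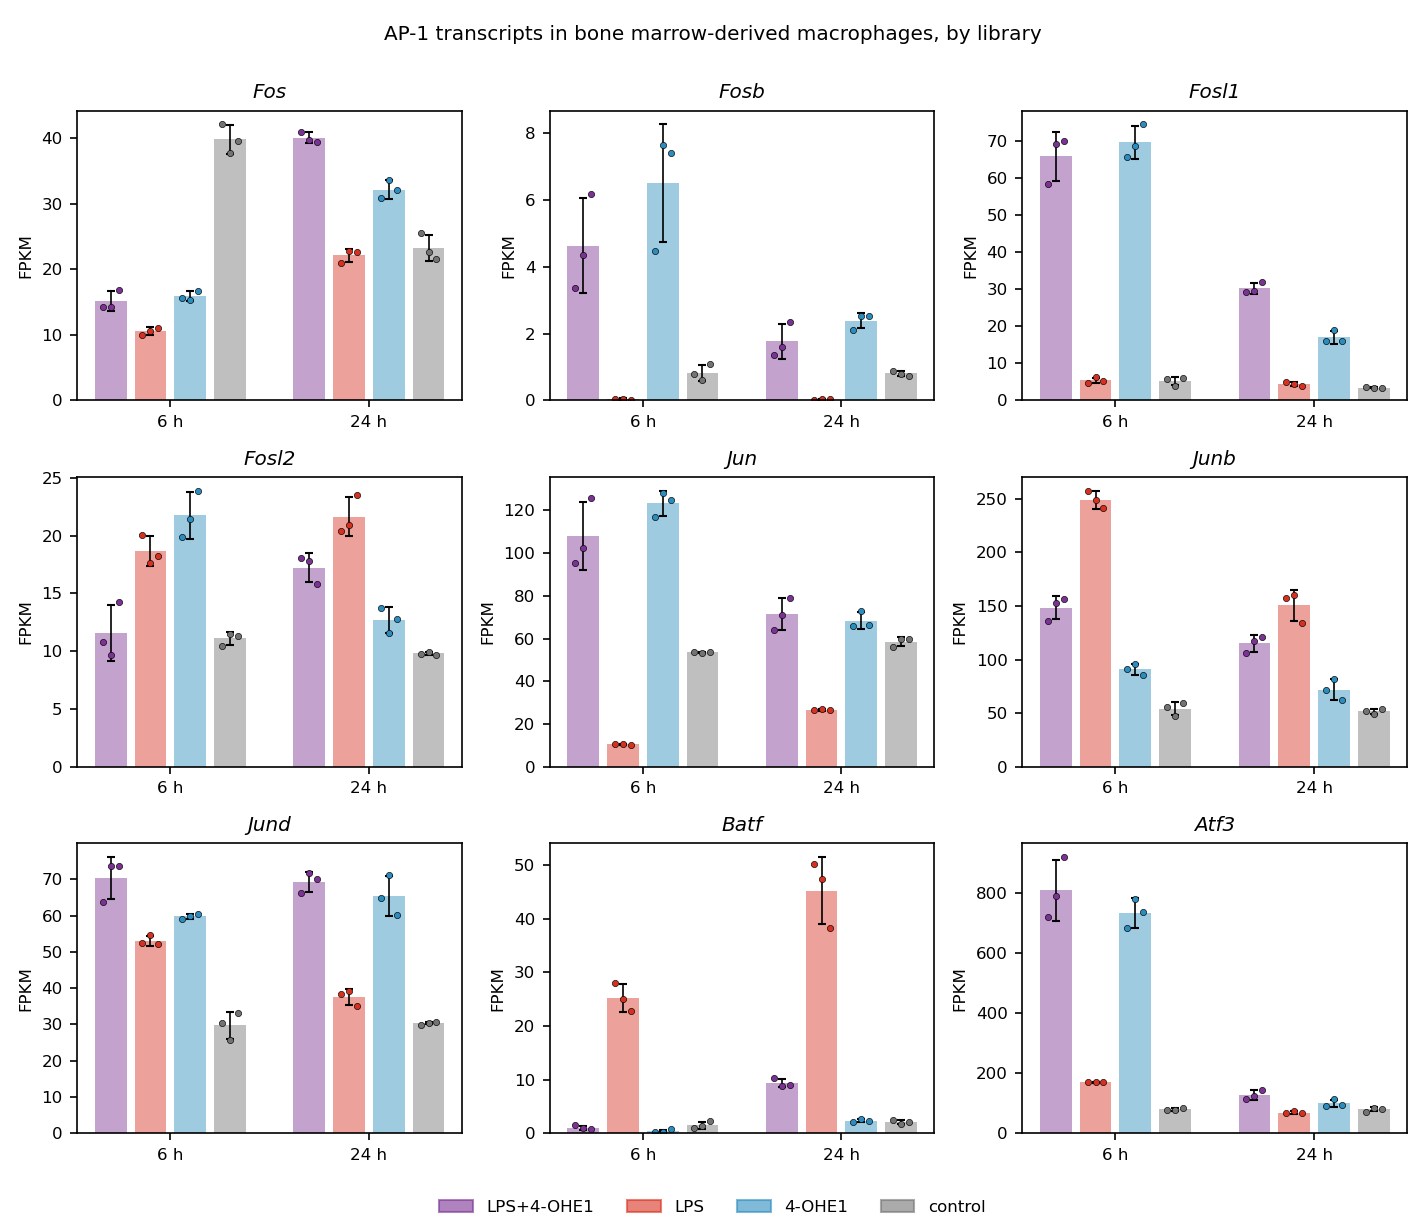
Level of each of the 9 AP-1 genes in FPKM (vertical axis, starting at 0, its own scale per gene) in the LPS+4-OHE1, LPS, 4-OHE1 and control groups at 6 h and 24 h. Points are libraries, bars are means and error bars are SD of 3 libraries. Jun was lowest in the LPS groups at both times, Batf was highest there, and Atf3 and Fosl1 were highest in the 6 h groups given 4-OHE1.

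Jun, whose protein c-Jun is the archetypal AP-1 subunit and activates transcription strongly, fell under LPS and rose under 4-OHE1. The gene lies at chr4:95049036-95052222 on the minus strand (mm10). At 6 h Jun had 95.5, 102 and 126 FPKM in LPS+4-OHE1 libraries, 10.9, 10.6 and 10.3 FPKM in LPS libraries, 117, 128 and 125 FPKM in 4-OHE1 libraries and 53.9, 53.4 and 53.7 FPKM in control libraries. Every LPS library lay below every control library, and every library with 4-OHE1 lay above. The log2 difference of LPS from control was -2.29 ± 0.084 (SE, adjusted p = 1.05e-10), and that of LPS+4-OHE1 from LPS was 3.28 ± 0.084 (adjusted p = 1.24e-11). 4-OHE1 alone raised Jun by 1.19 ± 0.084 over control. At 24 h Jun had 64.1, 71.2 and 79.2 FPKM under both agents, 26.5, 27.1 and 26.4 FPKM under LPS, 65.8, 73.1 and 66.2 FPKM under 4-OHE1 and 56.0, 59.7 and 59.8 FPKM in control. LPS libraries were again the lowest and overlapped no other group. The LPS difference at 24 h was -1.12 ± 0.072. The 4-OHE1 difference at 24 h, 0.22 ± 0.072 (adjusted p = 0.0209), missed the threshold with scaling (0.14, adjusted p = 0.105), without control replicate 1 (0.19, adjusted p = 0.081) and without 4-OHE1 replicate 2 (0.17, adjusted p = 0.084).

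Junb, a Jun protein with weak activation that can restrain c-Jun and is induced in activated macrophages, moved opposite to Jun under LPS. It lies at chr8:84976909-84978748 on the minus strand. At 6 h Junb had 136, 152 and 157 FPKM in LPS+4-OHE1 libraries, 257, 249 and 241 FPKM in LPS libraries, 91.1, 95.8 and 85.7 FPKM in 4-OHE1 libraries and 55.5, 47.5 and 59.5 FPKM in control libraries. The 4 groups did not overlap, and LPS was the highest and control the lowest. Junb rose by 2.20 ± 0.082 under LPS (adjusted p = 1.19e-10) and by 0.75 ± 0.082 under 4-OHE1 (adjusted p = 6.24e-06), and was lower by -0.75 ± 0.082 under both agents than under LPS. At 24 h the means were 115 ± 7.96 FPKM under both agents, 151 ± 14.4 FPKM under LPS, 71.8 ± 9.90 FPKM under 4-OHE1 and 51.8 ± 2.39 FPKM in control, in the same order. The 24 h differences were 1.53 ± 0.098 for LPS, 0.46 ± 0.098 for 4-OHE1 and -0.39 ± 0.098 for both agents against LPS.

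Jund, the most broadly expressed Jun protein and usually the least inducible, lies at chr8:70697739-70700616 on the plus strand. At 6 h it had 63.7, 73.8 and 73.5 FPKM in LPS+4-OHE1 libraries, 52.4, 54.6 and 52.1 FPKM in LPS libraries, 58.9, 60.0 and 60.4 FPKM in 4-OHE1 libraries and 30.3, 25.8 and 33.1 FPKM in control libraries. All treated libraries lay above all control libraries. The difference from control was 0.83 ± 0.084 for LPS and 1.00 ± 0.084 for 4-OHE1. Both agents exceeded LPS alone by 0.40 ± 0.084 (adjusted p = 0.000992), which with scaling was 0.18 (adjusted p = 0.0621). At 24 h Jund averaged 69.3 ± 2.81 FPKM under both agents, 37.6 ± 2.21 FPKM under LPS, 65.3 ± 5.58 FPKM under 4-OHE1 and 30.4 ± 0.360 FPKM in control, so that the groups with and without 4-OHE1 did not overlap.

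Annotated exons of 3 Jun genes and of Fosl1 overlap genes on the opposite strand, and the counting command in the file headers names no strand option, so reads of such pairs cannot be told apart. In the GENCODE annotation Jun shares 232 exonic bases (7.28% of its exons) with Junos, Junb 173 bases (7.52%) with Prdx2, and Jund 877 bases (52.6%) with Gm11175. Prdx2, a peroxiredoxin, averaged 59.5 ± 3.61 FPKM in LPS and 60.2 ± 3.62 FPKM in control at 6 h, and 101 ± 13.6 FPKM in LPS and 56.7 ± 0.284 FPKM in control at 24 h. Its part in the Junb values was not tested.

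The make-up of the Jun family differed between treatments. In LPS libraries at 6 h, Jun made up 3.39 ± 0.0220% of the summed FPKM of the 3 genes and Junb 79.6 ± 0.540%, against 39.1 ± 2.75% and 39.3 ± 1.62% in control libraries (SD, n = 3). Under both agents, Jun held 32.9 ± 2.15% and Junb 45.5 ± 1.28%, and under 4-OHE1 alone Jun held 45.03 ± 1.15% and Junb 33.2 ± 1.34%. At 24 h Jun held 12.5 ± 0.889% under LPS, against 41.6 ± 1.07% in control. Jund held 31.8 ± 0.280% under 4-OHE1 at 24 h, against 21.6 ± 0.340% in control. The summed level at 6 h was 327 ± 30.5 FPKM under both agents, 313 ± 8.77 FPKM under LPS, 274 ± 8.89 FPKM under 4-OHE1 and 138 ± 9.90 FPKM in control. These shares do not depend on scaling between libraries, while the summed levels, from FPKM as deposited, do. The exact two-sided permutation test on 3 against 3 libraries gave p = 0.1 for each pair of groups that did not overlap, the smallest p it allows.

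**Figure D2:**
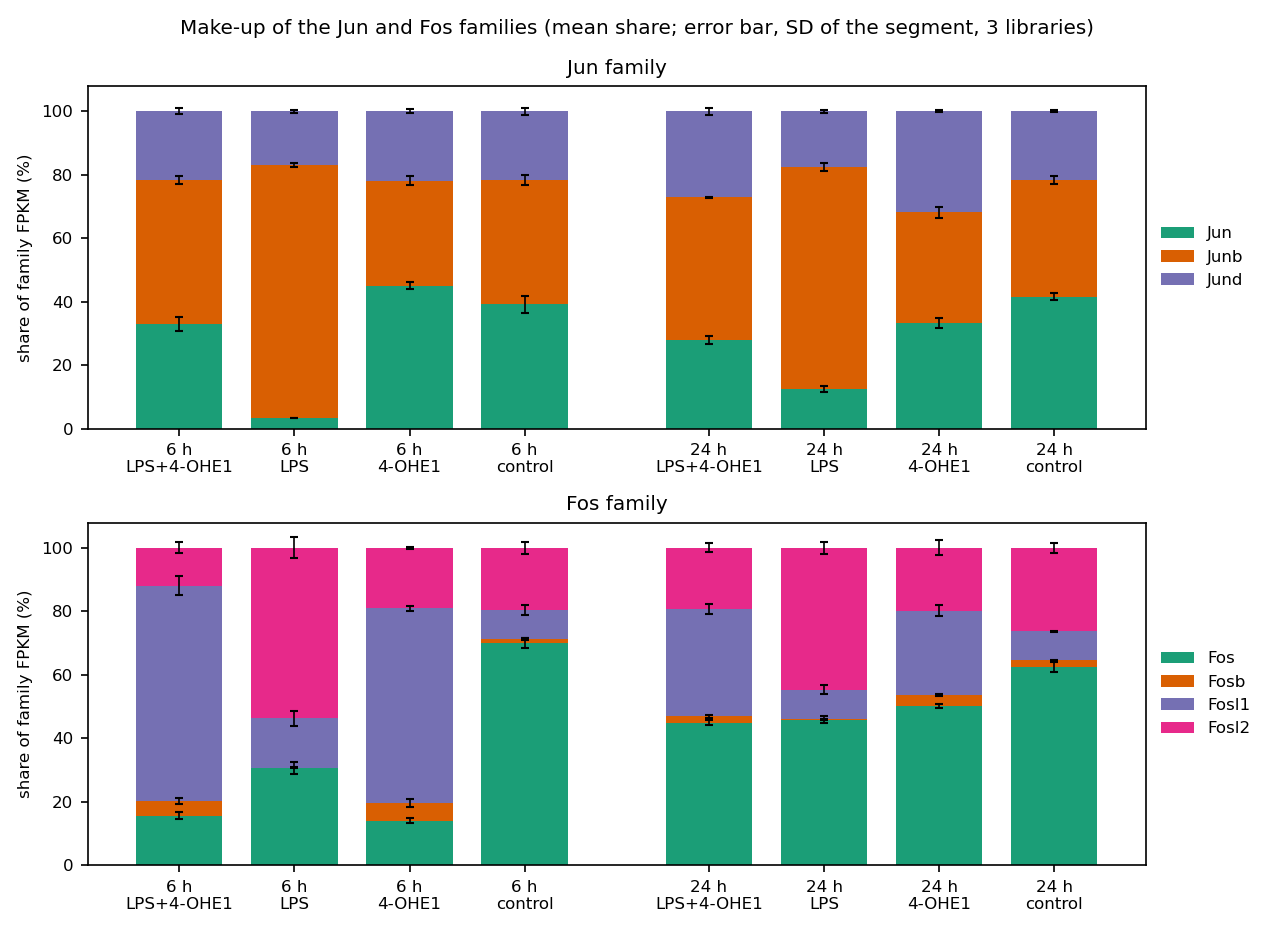
Share (%, vertical axis from 0) of each member in the summed FPKM of the Jun family (upper panel) and the Fos family (lower panel), for the 4 treatments at 6 h and 24 h. Segments are means of 3 libraries and each error bar is the SD of the segment below it. Jun held 3.39% of its family under LPS at 6 h against 39.1% in control, and Fosl1 held 67.8% and 61.2% of the Fos family in the 6 h groups given 4-OHE1.

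Fos, which encodes c-Fos, was lower in every treated group than in control at 6 h. The gene lies at chr12:85473901-85477270 on the plus strand. At 6 h Fos had 14.3, 14.2 and 16.9 FPKM in LPS+4-OHE1 libraries, 10.0, 10.6 and 11.1 FPKM in LPS libraries, 15.7, 15.3 and 16.7 FPKM in 4-OHE1 libraries and 42.1, 37.7 and 39.6 FPKM in control libraries. The control libraries stood well above the rest, and the LPS libraries were below all others. The difference from control was -1.86 ± 0.078 for LPS (adjusted p = 3.2e-10), -1.30 ± 0.078 for 4-OHE1 (adjusted p = 3.29e-08) and -1.37 ± 0.078 for both. At 24 h Fos had 41.1, 39.8 and 39.5 FPKM under both agents, 21.0, 22.8 and 22.6 FPKM under LPS, 30.9, 33.7 and 32.1 FPKM under 4-OHE1 and 25.5, 22.7 and 21.7 FPKM in control. Groups with 4-OHE1 were the highest at this time, and LPS and control libraries overlapped. Fos rose by 0.46 ± 0.065 under 4-OHE1 (adjusted p = 8.08e-05) and was higher by 0.84 ± 0.065 under both agents than under LPS (adjusted p = 3.46e-07). The LPS difference at 24 h was -0.07 ± 0.065 (adjusted p = 0.355) as deposited and 0.29 with scaling (adjusted p = 0.00112). The authors' deposited table gives 0.28 (adjusted p = 0.0132) for the same comparison of Fos, so its direction turns with the scaling.

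Fosl1, which encodes Fra-1, a Fos protein without a transactivation domain that is induced by sustained MAP kinase signalling, rose most among the Fos genes under 4-OHE1. It lies at chr19:5447698-5455938 on the plus strand. At 6 h Fosl1 had 58.3, 69.3 and 70.1 FPKM in LPS+4-OHE1 libraries, 4.76, 6.24 and 5.14 FPKM in LPS libraries, 65.6, 68.8 and 74.5 FPKM in 4-OHE1 libraries and 5.69, 3.97 and 6.10 FPKM in control libraries. The 6 libraries with 4-OHE1 lay far above the 6 without it, and LPS overlapped control. The difference of 4-OHE1 from control was 3.63 ± 0.140 (adjusted p = 6.79e-10), and that of both agents from LPS was 3.50 ± 0.140 (adjusted p = 3.16e-10). The LPS difference was 0.04 ± 0.140 (adjusted p = 0.772) as deposited and 0.68 with scaling (adjusted p = 0.00055), and the authors' deposited table gives 0.72 (adjusted p = 0.0013) for Fosl1. At 24 h Fosl1 had 29.2, 29.5 and 32.0 FPKM under both agents, 5.03, 4.41 and 4.01 FPKM under LPS, 15.9, 19.1 and 16.2 FPKM under 4-OHE1 and 3.57, 3.31 and 3.29 FPKM in control. No groups overlapped at 24 h, and both agents together gave the highest level. Fosl1 shares 1163 exonic bases (57.2% of its annotated exons) with Ccdc85b on the opposite strand. Ccdc85b averaged 22.7 ± 1.86 FPKM under both agents, 2.30 ± 0.259 FPKM under LPS, 25.3 ± 1.62 FPKM under 4-OHE1 and 4.71 ± 0.587 FPKM in control at 6 h, and its part in the Fosl1 values was not tested.

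Fosb, an immediate early Fos gene, was close to undetected under LPS. It lies at chr7:19302696-19310045 on the minus strand. At 6 h Fosb had 3.37, 4.35 and 6.17 FPKM in LPS+4-OHE1 libraries, 0.051, 0.057 and 0 FPKM in LPS libraries, 4.47, 7.63 and 7.38 FPKM in 4-OHE1 libraries and 0.790, 0.602 and 1.09 FPKM in control libraries. The 3 LPS libraries together held 4 reads from Fosb, against 96 in control libraries, a depth-adjusted ratio of 0.0470 (95% interval 0.0126 to 0.124, counting error only). The 3 LPS+4-OHE1 libraries held 519 reads, 122 times the LPS level (95% interval 47.3 to 449). At 24 h there were 214 Fosb reads under both agents, 3 under LPS and 102 in control, and the ratio of LPS to control was 0.0330 (95% interval 0.00669 to 0.0991). The fitted difference of 4-OHE1 from control was 2.38 ± 0.227 at 6 h and 1.14 ± 0.160 at 24 h. The 0.5 FPKM added before taking logs shrinks the fitted LPS differences of so low a gene, which were -1.29 at 6 h and -1.32 at 24 h.

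Fosl2, which encodes Fra-2, rose under each agent alone at 6 h, but under both agents only with scaling. It lies at chr5:32136472-32157839 on the plus strand. At 6 h Fosl2 had 10.8, 9.65 and 14.3 FPKM in LPS+4-OHE1 libraries, 20.1, 17.6 and 18.2 FPKM in LPS libraries, 19.9, 21.5 and 23.9 FPKM in 4-OHE1 libraries and 10.5, 11.5 and 11.3 FPKM in control libraries. The single-agent libraries lay above the control libraries, while those given both agents overlapped them. The difference from control was 0.72 ± 0.121 for LPS, 0.94 ± 0.121 for 4-OHE1 and 0.04 ± 0.121 for both (adjusted p = 0.777), which with scaling was 0.49 (adjusted p = 0.00138). At 24 h Fosl2 averaged 17.2 ± 1.24 FPKM under both agents, 21.6 ± 1.69 FPKM under LPS, 12.7 ± 1.10 FPKM under 4-OHE1 and 9.80 ± 0.114 FPKM in control, and no groups overlapped.

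The make-up of the Fos family differed between treatments at 6 h. Fos held 30.6 ± 1.75% of the summed FPKM of the 4 Fos genes under LPS and 14.0 ± 0.737% under 4-OHE1, against 69.9 ± 1.57% in control. Fosl1 held 67.8 ± 2.97% under both agents and 61.2 ± 0.741% under 4-OHE1, against 9.16 ± 1.61% in control, and Fosl2 held 53.8 ± 3.34% under LPS, against 19.5 ± 1.84% in control. The summed level as deposited was 97.2 ± 10.4 FPKM under both agents, 34.7 ± 0.240 FPKM under LPS, 114 ± 8.42 FPKM under 4-OHE1 and 57.0 ± 2.80 FPKM in control. Unlike the shares, these sums depend on scaling between libraries, and scaled sums were not computed. Median-of-ratios factors, which divide FPKM, were 0.768 to 0.792 for LPS libraries and 1.25 to 1.28 for control libraries. Scaling therefore raises the LPS sum and lowers the control sum. The gap between these sums as deposited is not read as a lower Fos family total under LPS. At 24 h Fos had the largest mean share in every treatment, from 44.9 ± 0.848% under both agents to 62.4 ± 1.60% in control.

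Batf, best known for its roles in lymphocytes and dendritic cells with interferon regulatory factors, rose under LPS alone. It lies at chr12:85686720-85709087 on the plus strand. At 6 h Batf had 1.47, 0.929 and 0.730 FPKM in LPS+4-OHE1 libraries, 28.0, 24.9 and 22.8 FPKM in LPS libraries, 0.244, 0.274 and 0.704 FPKM in 4-OHE1 libraries and 1.01, 1.27 and 2.25 FPKM in control libraries. LPS libraries stood alone, and libraries given both agents overlapped the control ones. The 3 LPS libraries held 663 Batf reads, those given both agents 29, those given 4-OHE1 10 and the controls 42. The difference of LPS from control was 3.72 ± 0.249 (adjusted p = 2.29e-08) and that of both agents from LPS was -4.08 ± 0.249 (adjusted p = 1.65e-08). Counted in reads at equal depth, Batf under both agents was 0.0411 of its level under LPS (95% interval 0.0273 to 0.0596). At 24 h Batf had 10.2, 8.87 and 8.96 FPKM under both agents, 50.2, 47.3 and 38.3 FPKM under LPS, 2.04, 2.64 and 2.26 FPKM under 4-OHE1 and 2.42, 1.71 and 2.16 FPKM in control. LPS was again the highest, and the group given both agents now stood above control and below LPS. The 4-OHE1 difference of -1.13 ± 0.249 at 6 h (adjusted p = 0.00154) rests on few reads, and the authors' deposited table gives -1.62 (adjusted p = 0.0627) for Batf. Summed T cell and B cell markers stayed at or below 0.894 FPKM in every LPS library. Dendritic cell markers summed to 5.39 to 6.46 FPKM under LPS at 24 h, against 0.034 to 0.214 FPKM in control. Of these, Ccr7 averaged 5.73 FPKM under LPS and 0.052 FPKM in control, and the other dendritic cell markers were at or below 0.246 FPKM under LPS. At 6 h the sums were 1.74 to 2.56 FPKM under LPS and 0.229 to 0.436 FPKM in control. Any part of such cells in the Batf values was not tested.

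Atf3 had the highest level of all 9 genes in both 4-OHE1-containing groups at 6 h. It lies at chr1:191170297-191183333 on the minus strand. At 6 h Atf3 had 718, 789 and 918 FPKM in LPS+4-OHE1 libraries, 169, 171 and 169 FPKM in LPS libraries, 682, 779 and 736 FPKM in 4-OHE1 libraries and 76.4, 75.8 and 85.5 FPKM in control libraries. The groups formed 3 levels without overlap, since the 2 groups given 4-OHE1 overlapped each other only. The difference from control was 1.10 ± 0.084 for LPS (adjusted p = 8.54e-08), 3.20 ± 0.084 for 4-OHE1 (adjusted p = 2.68e-11) and 3.34 ± 0.084 for both (adjusted p = 9.37e-12). At 24 h Atf3 had 113, 123 and 144 FPKM under both agents, 65.6, 74.5 and 66.3 FPKM under LPS, 90.2, 113 and 93.2 FPKM under 4-OHE1 and 71.7, 84.3 and 82.0 FPKM in control. LPS overlapped control at this time, and its difference was -0.20 ± 0.106 (adjusted p = 0.1). The 4-OHE1 difference, 0.31 ± 0.106 (adjusted p = 0.0256), missed the threshold with scaling (0.23, adjusted p = 0.0739), without control replicate 1 (0.24, adjusted p = 0.108) and without 4-OHE1 replicate 2 (0.21, adjusted p = 0.112).

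LPS against control asked how bacterial stimulation alone changed the family. At 6 h Atf3, Batf, Fosl2, Junb and Jund rose and Fos, Fosb and Jun fell, so that 5 of 9 members rose (5 of 8 without Fosb) and 3 fell (2 of 8). Of all genes tested, 16.1% were called higher and 68.1% lower, and the members' median was 0.72 against -0.61 over all genes. With scaling, 4106 genes were higher and 3836 lower, and 6 members were higher and 3 lower. At 24 h Batf, Fosl1, Fosl2, Junb and Jund rose and Fosb and Jun fell, 5 and 2 of 9 (5 and 1 of 8 without Fosb), against 19.9% higher and 53.5% lower of all genes. The members' median was 0.30 against -0.31 over all genes, and with scaling 3974 genes were higher and 3723 lower.

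4-OHE1 against control raised Fosb, Fosl1, Fosl2, Jun, Junb, Jund and Atf3 at 6 h, 7 of 9 (6 of 8 without Fosb), and lowered Fos and Batf, where 20.9% of all genes were called higher and 44.0% lower. The members' median was 1.00 against -0.21 over all genes, and with scaling the gene counts were 3198 higher and 3517 lower. The size of the 7 increases ran from 0.75 for Junb to 3.63 for Fosl1. At 24 h 8 members rose (7 of 8 without Fosb) and none fell in limma, and Batf was not called (0.12 ± 0.128, adjusted p = 0.449). All genes gave 29.9% higher and 23.1% lower there, 2699 higher and 3173 lower with scaling. With scaling 6 of the 9 members were called higher and 0 lower, since Jun and Atf3 missed the threshold.

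LPS+4-OHE1 against LPS asked what 4-OHE1 did to the LPS response. At 6 h Fos, Fosb, Fosl1, Jun, Jund and Atf3 were higher and Fosl2, Junb and Batf lower, 6 and 3 of 9 (5 and 3 of 8 without Fosb), against 42.7% higher and 25.3% lower of all genes. Scaling left 5 higher and 3 lower members, and 3542 higher and 3906 lower genes. The same members made up the split of 6 and 3 at 24 h (5 and 3 of 8 without Fosb), where 39.5% of genes were higher and 14.9% lower, or 2588 higher and 2957 lower with scaling. Without replicate 3 of LPS+4-OHE1, the library that stood apart, the 6 h split was 6 and 3, with Fosb among the higher members.

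**Figure D3:**
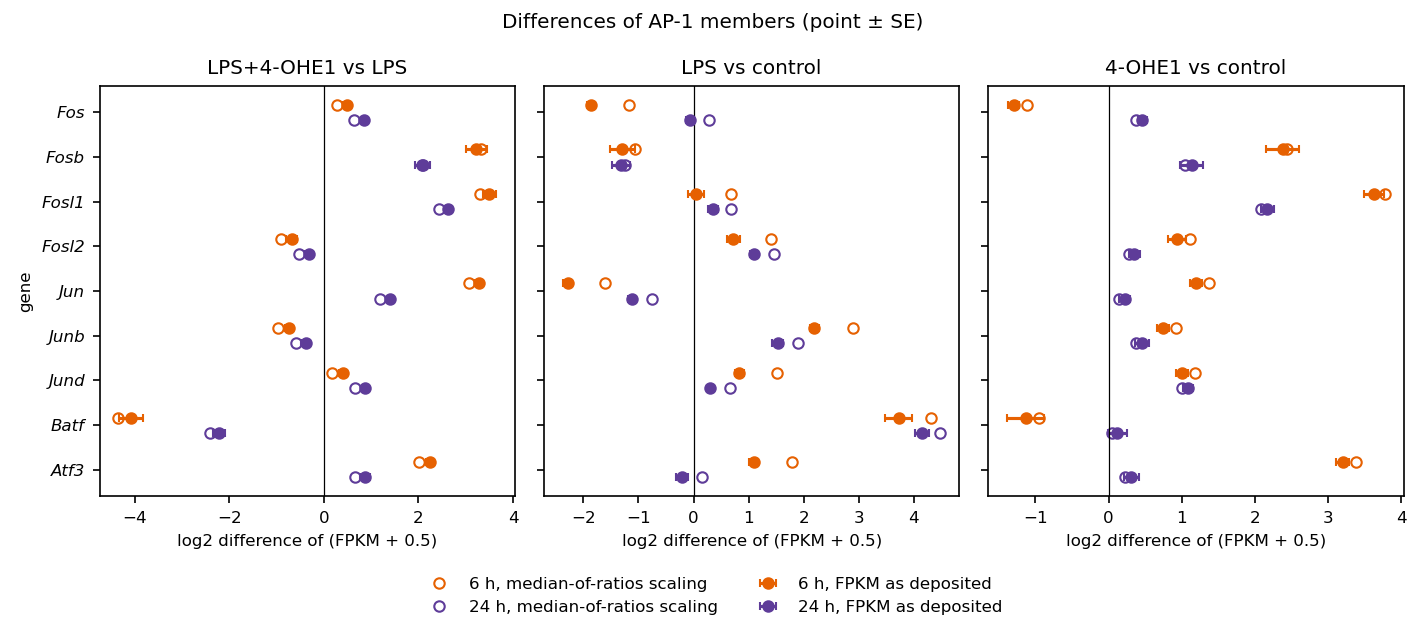
Log2 difference of (FPKM + 0.5) (horizontal axis) for each of the 9 genes in LPS+4-OHE1 against LPS, LPS against control and 4-OHE1 against control, at 6 h (orange) and 24 h (purple). Filled points with SE bars are from FPKM as deposited and open points from scaled values. Under LPS, Jun (-2.29) and Batf (3.72) lay far apart at 6 h, and under LPS+4-OHE1 against LPS they lay at 3.28 and -4.08.

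LPS+4-OHE1 against 4-OHE1, the effect of adding LPS to 4-OHE1, was smaller at 6 h. Junb (0.70 ± 0.082), Batf (0.77 ± 0.249) and Jund (0.23 ± 0.084) were higher and Fosl2 (-0.90 ± 0.121) lower, 3 and 1 of 9, against 10.1% higher and 50.2% lower of all genes. With scaling 2306 genes were higher and 2015 lower, and 5 members were higher and 1 lower. Fos, at -0.07 (adjusted p = 0.439) as deposited, was 0.21 with scaling (adjusted p = 0.0395), and Atf3 was 0.43 (adjusted p = 0.000427). Jund and Batf were not stable here. Jund missed the threshold without 4-OHE1 replicate 1 (adjusted p = 0.0779), 2 (0.0669) or 3 (0.0574) and without LPS+4-OHE1 replicate 2 (0.104) or 3 (0.0832). Batf missed it without 4-OHE1 replicate 1 (adjusted p = 0.0676) or 2 (0.0632) and without LPS+4-OHE1 replicate 1 (0.0766). Without LPS+4-OHE1 replicate 3, Fosb (-0.66, adjusted p = 0.025) and Jun (-0.32, adjusted p = 0.000561) were lower as well. Voom on recovered reads also called Fosb (-0.49, adjusted p = 0.0488) and Jun (-0.20, adjusted p = 0.0277) lower. So did leaving out 4-OHE1 replicate 1 for Fosb (-0.68, adjusted p = 0.0217) and the 5 FPKM filter for Jun (-0.20, adjusted p = 0.0495). At 24 h Fos, Fosl1, Fosl2, Junb, Batf and Atf3 were higher and none lower in limma, 6 of 9, against 12% higher and 44.3% lower of all genes, or 2590 higher and 2406 lower with scaling. With scaling 8 of 9 were higher, since Jun (0.29, adjusted p = 0.00385) and Jund (0.32, adjusted p = 0.00119) were called too, against 0.06 (adjusted p = 0.492) and 0.09 (adjusted p = 0.275) as deposited. Atf3 (0.35 ± 0.106, adjusted p = 0.0129) missed the threshold without 4-OHE1 replicate 1 (0.29, adjusted p = 0.0572) and without LPS+4-OHE1 replicate 3 (0.26, adjusted p = 0.058). Fosb was called lower at 24 h without LPS+4-OHE1 replicate 3 (-0.55, adjusted p = 0.00826) and with voom on recovered reads (-0.46, adjusted p = 0.0349).

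Against control, both agents together raised Fosb, Fosl1, Jun, Junb, Jund and Atf3 at 6 h, 6 of 9 (5 of 8 without Fosb), and lowered Fos, with 19.1% of all genes higher and 58.8% lower (3953 and 3953 with scaling). At 24 h all 9 members (8 of 8 without Fosb) were higher than control in limma, with and without scaling, from 0.28 ± 0.072 for Jun to 2.98 ± 0.091 for Fosl1, against 26.8% higher and 42.7% lower of all genes (3871 and 3820 with scaling). Between the single agents, LPS against 4-OHE1 at 6 h gave 2 higher members, Junb and Batf, and 5 lower ones (4 without Fosb), Fos, Fosb, Fosl1, Jun and Atf3, against 18.1% higher and 60.6% lower of all genes. With scaling 3863 genes were higher and 3816 lower, Fosl2 (0.29, adjusted p = 0.0307) and Jund (0.34, adjusted p = 0.00167) were higher too, and Fos was not called (-0.07, adjusted p = 0.432). At 24 h the split was 3 higher (Fosl2, Junb, Batf) and 6 lower (Fos, Fosb, Fosl1, Jun, Jund, Atf3; 5 without Fosb), against 13.6% and 61.8% of all genes (3530 and 3379 with scaling). With scaling Fos (-0.09, adjusted p = 0.216) and Atf3 (-0.07, adjusted p = 0.563) missed the threshold there.

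The interaction tests whether the effect of both agents differed from the sum of the separate effects on the log2 scale. At 6 h it was positive for Jun (2.08 ± 0.119, adjusted p = 3.39e-08), Fos (1.79 ± 0.110, adjusted p = 6.46e-08) and Fosb and negative for Batf (-2.95 ± 0.352), Fosl2 (-1.62 ± 0.171), Junb (-1.49 ± 0.116), Atf3 (-0.96 ± 0.119) and Jund (-0.60 ± 0.118). These are 3 and 5 of 9 members (2 and 5 of 8 without Fosb), against 45.5% positive and 15.2% negative of all genes (2770 and 3182 with scaling). Fosb (0.84 ± 0.321, adjusted p = 0.0382) lost its call with a pseudocount of 1 (0.40, adjusted p = 0.236), with no filter (adjusted p = 0.0727) and without any of 8 libraries, among them LPS+4-OHE1 replicate 3 (0.63, adjusted p = 0.0932). Fosl1 was not called (-0.13 ± 0.197, adjusted p = 0.596). For Jun, the separate effects summed to -1.09 and both agents gave 0.99. For Fosl2, as deposited, they summed to 1.66 and both agents gave 0.04. With scaling both agents gave 0.49, and the scaled sum is not given here. At 24 h 5 members were positive, led by Jun (1.18 ± 0.102), with Fosb, Atf3, Fosl1 and Fos (4 without Fosb), and 3 negative, led by Batf (-2.33 ± 0.181), with Junb and Fosl2, against 27.6% and 15.7% of all genes (2403 and 2416 with scaling). Jund (-0.22 ± 0.093, adjusted p = 0.0802) was called negative with scaling (-0.34, adjusted p = 0.00781), without LPS replicate 3 (-0.27, adjusted p = 0.0329) and without 4-OHE1 replicate 3 (-0.28, adjusted p = 0.027).

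**Figure D4:**
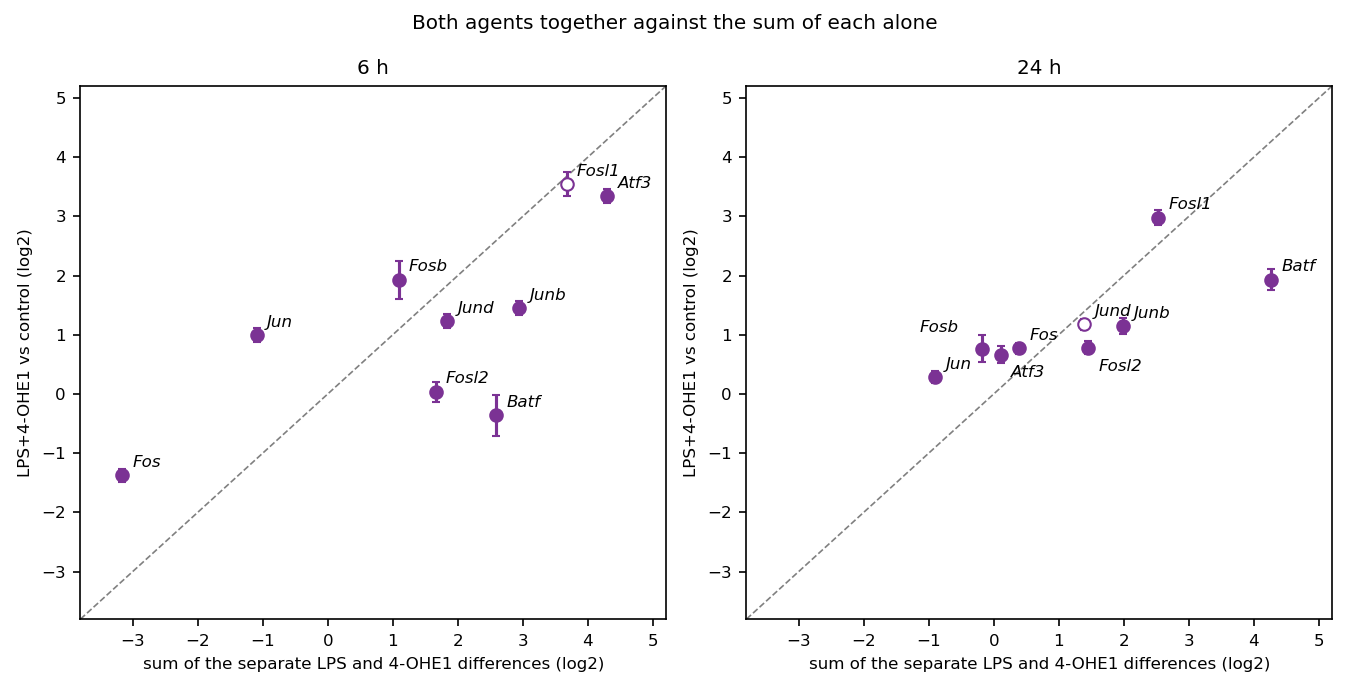
Log2 difference of LPS+4-OHE1 from control (vertical axis) against the sum of the separate LPS and 4-OHE1 differences from control (horizontal axis) for each gene, at 6 h and 24 h. The dashed line is equality, error bars are the SE of the interaction, and filled points had an adjusted p under 0.05 for the interaction. Jun and Fos lie above the line and Batf, Fosl2 and Junb below it at both times.

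Between the times, the control macrophages changed little: Fos (-0.76 ± 0.071, adjusted p = 1.37e-06) and Fosl1 (-0.54 ± 0.123, adjusted p = 0.0123) were lower at 24 h than at 6 h and no member was higher in limma, where 2.37% of all genes were called in each direction. Fosl1 lost its call without 4 of the 6 control libraries, 6 h replicate 1 (-0.48, adjusted p = 0.0708), 6 h replicate 3 (-0.43, adjusted p = 0.079), 24 h replicate 2 (-0.53, adjusted p = 0.0527) and 24 h replicate 3 (-0.53, adjusted p = 0.0551). Under LPS, Jun (1.29 ± 0.080), Fos (1.03 ± 0.071) and Batf (0.83 ± 0.209) were higher at 24 h and Atf3 (-1.30 ± 0.10), Junb (-0.73 ± 0.095) and Jund (-0.49 ± 0.077) lower, 3 and 3 of 9, against 47.6% higher and 20.8% lower of all genes (3410 and 3749 with scaling). Fosl1 (-0.24 ± 0.123, adjusted p = 0.0943) was called lower with scaling (-0.52, adjusted p = 0.000819), without 6 h control replicate 2 (adjusted p = 0.0395) and without LPS replicate 1 at 6 h (adjusted p = 0.0496) or 24 h (adjusted p = 0.0485). Under 4-OHE1, Batf (1.66 ± 0.209) and Fos (0.99 ± 0.071) were higher and 6 members lower (5 without Fosb), led by Atf3 (-2.89 ± 0.10) and Fosl1 (-2.00 ± 0.123), with Fosb, Jun, Fosl2 and Junb, against 44.2% and 21.2% of all genes (3283 and 3476 with scaling). Under both agents, Batf (2.70 ± 0.209), Fos (1.38 ± 0.071) and Fosl2 (0.57 ± 0.106) were higher and 5 members lower (4 without Fosb), again led by Atf3 (-2.67 ± 0.10), with Fosb, Fosl1, Jun and Junb, against 47.9% and 23.8% of all genes (3676 and 3916 with scaling). Jund (-0.02 ± 0.077, adjusted p = 0.842) was called lower with scaling (-0.30, adjusted p = 0.000996).

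Whether an effect differed between the times was tested as a difference of differences. Higher and lower refer to the signed value, so for Fos and Jun a higher LPS effect was a less negative one as deposited. The LPS effect was higher at 24 h for Fos (1.79 ± 0.10), Jun (1.17 ± 0.113) and Fosl2, and lower for Atf3 (-1.30 ± 0.142), Junb (-0.67 ± 0.134) and Jund (-0.53 ± 0.108), 3 and 3 of 9, against 41.7% and 16.9% of all genes (2680 and 3160 with scaling). The Fosl2 value (0.38 ± 0.149, adjusted p = 0.0357) was 0.05 with scaling (adjusted p = 0.774), and lost its call without any of 8 of the 24 libraries (0.32 to 0.43 over all 24). The 4-OHE1 effect was higher for Fos (1.76 ± 0.10) and Batf (1.26 ± 0.296) and lower for Atf3 (-2.89 ± 0.142), Fosl1 (-1.46 ± 0.174), Fosb (-1.24 ± 0.284), Jun (-0.97 ± 0.113) and Fosl2 (-0.58 ± 0.149), 2 and 5 of 9 (2 and 4 of 8 without Fosb), against 37.0% and 16.6% of all genes (2438 and 2841 with scaling). Junb (-0.28 ± 0.134, adjusted p = 0.0798) was called lower with scaling (-0.54, adjusted p = 0.00123), without 6 h control replicate 3 (-0.35, adjusted p = 0.0386) and without 24 h 4-OHE1 replicate 2 (-0.38, adjusted p = 0.018). The difference between both agents and LPS shrank for Jun (-1.88 ± 0.113), Atf3 (-1.37 ± 0.142), Fosb (-1.14 ± 0.284) and Fosl1 (-0.87 ± 0.174), was less negative for Batf (1.87 ± 0.296), Fosl2 (0.36 ± 0.149) and Junb (0.36 ± 0.134), and was larger for Jund (0.47 ± 0.108) and Fos (0.35 ± 0.10). That is 5 higher and 4 lower of 9 (5 and 3 of 8 without Fosb), against 25.5% and 25.7% of all genes. The Fosl2 call (adjusted p = 0.0473) was lost without any of 16 of the 24 libraries (0.25 to 0.52 over all 24), and the Junb call (adjusted p = 0.0297) without any of 5 (0.28 to 0.42).

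Genes of the pathway around AP-1 were taken from 7 lists and are described by counts, to be read against the all-gene percentages given with each comparison. As with Fosb, a listed gene could pass the filter only through groups where it was high, so that its call was partly built in. Il1b, Il6 and Batf2, each below 1 FPKM in control at 6 h, passed through treated libraries. List counts without such genes were not computed. At 6 h these were 16.1% higher and 68.1% lower for LPS, 20.9% and 44.0% for 4-OHE1, and 42.7% and 25.3% for LPS+4-OHE1 against LPS. At 24 h they were 19.9% and 53.5%, 29.9% and 23.1%, and 39.5% and 14.9%, in the same order. These shares are from FPKM as deposited. With scaling, of 11098 genes at 6 h, 4106 were higher and 3836 lower for LPS. The scaled counts were 3198 and 3517 for 4-OHE1, and 3542 and 3906 for LPS+4-OHE1 against LPS. Scaled list counts are to be read against these. Of 10 MAP kinase phosphatases, which switch off the kinases upstream of AP-1, 8 rose and 2 fell under 4-OHE1 at 6 h (median 2.16), among them Dusp1 (149 ± 7.90 FPKM, against 16.8 ± 1.49 FPKM in control), Dusp8 and Dusp10. Under LPS 4 rose and 4 fell, with Dusp2 (3.67) and Dusp16 (2.92) the most raised and Dusp6 (-2.28) the most lowered, and scaling gave 6 and 3. Under both agents against LPS 7 were higher and 2 lower, led by Dusp10 (15.2 ± 2.05 FPKM, against 0.278 ± 0.0569 FPKM under LPS). At 24 h 8 rose and 0 fell under 4-OHE1 in limma.

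Of 16 other immediate early genes tested at 6 h, 14 rose and 1 fell under 4-OHE1 (median 1.80), led by Ppp1r15a, a stress phosphatase subunit (286 ± 18.6 FPKM, against 7.57 ± 0.467 FPKM in control), Csrnp1 and Ier3. Under LPS 9 rose and 4 fell, led by Ier3 (213 ± 10.99 FPKM, against 7.415 ± 0.623 FPKM in control), and under both agents against LPS 11 were higher and 3 lower, led by Csrnp1 (4.05) and Klf4 (3.48). Of 25 other AP-1-related and basic leucine zipper genes, 15 rose and 5 fell under 4-OHE1, led by Ddit3, the stress factor CHOP (340 ± 23.4 FPKM, against 14.5 ± 0.483 FPKM in control), Nfil3 and Mafk. Under LPS 12 rose and 12 fell (15 and 6 with scaling), with Batf2 (37.8 ± 2.42 FPKM, against 0.488 ± 0.182 FPKM in control) and Cebpb raised. Under both agents against LPS 16 were higher and 7 lower, and Atf4, whose product binds the amino acid response element, averaged 489 ± 29.9 FPKM against 83.7 ± 4.01 FPKM under LPS.

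Of 26 textbook AP-1 target genes tested at 6 h, 20 rose and 5 fell under LPS (median 1.53), including the cytokine genes Il1b (2675 ± 173 FPKM, against 0.0377 ± 0.0652 FPKM in control), Cxcl2 (4306 ± 53.3 FPKM, against 2.01 ± 0.447 FPKM) and Il6 (687 ± 12.2 FPKM, against 0.0223 ± 0.0387 FPKM). Under 4-OHE1 12 rose and 7 fell, with Hbegf (4.04), Cxcl2 (3.70) and Ptgs2 (3.60) the most raised. Under both agents against LPS 9 were higher and 16 lower (median -1.17), and the most lowered were Il1b (8.53 ± 1.60 FPKM, against 2675 ± 173 FPKM under LPS), Il6 (20.2 ± 11.7 FPKM, against 687 ± 12.2 FPKM) and Mmp14 (2.97 ± 0.366 FPKM, against 102 ± 1.56 FPKM). At 24 h 18 of 27 rose and 6 fell under LPS, and under both agents against LPS 10 were higher and 12 lower. The targets did not all move one way in any of these comparisons, and many are known to be driven by other factors too.

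Of 27 MAP kinase cascade genes at 6 h, 6 rose and 17 fell under LPS, which scaling turned to 15 and 6. As deposited these are 22.2% and 63.0%, near the 16.1% higher and 68.1% lower of all genes. Mapkapk2, the kinase that acts below p38 (612 ± 0.333 FPKM, against 71.0 ± 4.12 FPKM in control), and Map3k8, which links Toll-like receptors to ERK, rose in both forms of the data. Under 4-OHE1 9 rose and 9 fell, and under both agents against LPS 10 were higher and 9 lower (5 and 14 with scaling). Of 10 serum response and ternary complex factor genes, 0 rose and 7 fell under 4-OHE1 in limma (1 and 5 with scaling), among them Elk3 (5.34 ± 0.132 FPKM, against 22.9 ± 0.201 FPKM in control), and under LPS 1 rose and 9 fell (2 and 5 with scaling). Of 16 genes of AP-1 turnover and repression, 4 rose and 10 fell under LPS (7 and 5 with scaling). As deposited these are 25% and 62.5%, also near the shares of all genes. Zfp36, whose product destabilises AU-rich messenger RNAs, was at 459 ± 14.3 FPKM under LPS against 31.8 ± 1.64 FPKM in control. Under 4-OHE1 6 rose and 8 fell, led by Trib3 (114 ± 7.54 FPKM, against 6.88 ± 0.743 FPKM in control). Under both agents against LPS, 4 of the serum response genes were higher and 4 lower, and 6 of the turnover genes were higher and 7 lower.

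Across the 24 libraries, the genes most like each member were ranked by Pearson r of log2(FPKM + 0.5) among 8380 genes, as a description over libraries that share treatments, times and scaling. Jun was most like Mknk2 (r = 0.994), Vps18 (0.983) and Mob2 (0.978). Junb was most like the chemokine gene Ccl3 (0.977), Tnf (0.972) and Clcn7 (0.969), and Batf like Irak3 (0.984), Slc31a2 (0.983) and Slc25a37 (0.979). Atf3 was most like Gtf2b (0.982), Zfand5 (0.976) and the heme oxygenase gene Hmox1 (0.974), and Fosl1 like the phosphatase gene Dusp5 (0.981), Hk1 (0.978) and Adrm1 (0.976). Genes most like Fosb included Rassf8 (0.977) and Aars (0.975), and Jund was most like Tcirg1 (0.980), AV051173 (0.953) and Bsdc1 (0.95). Fos (Polr1a 0.962, Pitpna 0.939 and Synj2 0.932) and Fosl2 (Tfe3 0.879, Mesdc1 0.866 and Tgif1 0.862) had the lowest best matches. Between members, r was 0.905 for Fosb and Jun, 0.883 for Fosb and Fosl1, 0.843 for Fosl1 and Atf3, -0.817 for Jun and Batf, and -0.650 for Fos and Junb.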

How the data were processed

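Primary macrophage mRNA libraries were sequenced on a HiSeq4000, per the labels' protocols. Per the file headers, the authors deposited FPKM per gene from HOMER's analyzeRepeats on mm10 exons, with the isoforms of a gene condensed to 1 transcript. STAR, HOMER, DESeq2 and edgeR are named in the submitters' processing notes, and versions are not given in the sources used here. The deposited FPKM are scaled to each library's total only. The authors' deposited comparison tables give log2 fold changes and adjusted p-values, which are printed here only where credited to them, and 72 further per-sample columns in those tables were not used.

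Whole reads were recovered from FPKM, transcript length and depth for 99.98 to 100.00% of values (tolerance 0.1 reads). Depth was 8127155 to 13339193 reads, of which 83.0 to 87.2% lay in genes. Tests used limma 3.58.1 in R 4.3.3 on log2(FPKM + 0.5) with a mean-variance trend, keeping genes that reached 1 FPKM in 3 libraries or more, 12 libraries per fit within a time and 24 across times (the 23423 genes with the same transcript in both tables). No replicate block was used. Read ratios carry 95% intervals for counting error only. PCR duplicates cannot be told from separate molecules. Tables, motif searches and figures were made in Python 3.11.15 (pandas 2.3.3, scipy 1.17.1, matplotlib 3.10.9). The fits were also run on simulated counts with a fixed spread and no shift shared by all genes. That run does not test the calls that depend on scaling. Replicates of a group correlated at 0.980 to 0.991, and no pair agreed within sampling noise, with chi-square over its degrees of freedom at 1.44 to 15.8.

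The members and gene lists were chosen with earlier results of these data known. The rule for named genes takes all members, up to 3 called genes with the largest difference per list, and the 3 most alike genes per member. Of the genes this rule picks, 2 are not reported here. Alternatives were median-of-ratios scaling, pseudocounts of 0.1 and 1, no filter or a 5 FPKM filter, voom on recovered reads, a robust fit, a replicate block, leaving out single libraries, and the fold changes the authors deposited.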

Additional observations from a re-analysis of the deposited data

Results flagged for a closer look

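The responses of the AP-1 members listed below differed between 6 h and 24 h by a test of the difference itself, with and without scaling. So did those of many other genes. Of all genes as deposited, 41.7% were called higher and 16.9% lower for the LPS effect, and 37.0% and 16.6% for the 4-OHE1 effect. For LPS+4-OHE1 against LPS the shares were 25.5% and 25.7%. Member counts with and without Fosb stand with these tests above. Each value below is the effect at 24 h minus the effect at 6 h on the log2 scale (limma over 24 libraries).

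For LPS against control the value was 1.79 for Fos and 1.17 for Jun. It was -0.67 for Junb, -0.53 for Jund and -1.30 for Atf3. The Jun difference from control was -1.12 at 24 h and -2.29 at 6 h, so the lower Jun level under LPS was closer to control at the later time.

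For 4-OHE1 against control the value was 1.76 for Fos and 1.26 for Batf. It was -1.24 for Fosb, -1.46 for Fosl1, -0.58 for Fosl2, -0.97 for Jun and -2.89 for Atf3. The Fos difference from control was 0.46 at 24 h and -1.30 at 6 h, of opposite sign.

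For LPS+4-OHE1 against LPS the value was 0.35 for Fos, 0.36 for Fosl2, 0.36 for Junb, 0.47 for Jund and 1.87 for Batf. It was -1.14 for Fosb, -0.87 for Fosl1, -1.88 for Jun and -1.37 for Atf3. The Fosb value lost its call with voom on recovered reads (-1.02, adjusted p = 0.492), and those of Fosl2 and Junb without any of 16 and of 5 of the 24 libraries.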

How the results depend on the processing

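Of 4565 values recomputed under alternatives, 4458 counted as unchanged, 70 lost and 32 gained the call, and 5 reversed. Of these values, 3024 came from leaving out single libraries. Many of those left out a library outside the comparison, which cannot move the difference itself. The pooled count is therefore not read as a measure of robustness. Median-of-ratios scaling left 169 of 189 values unchanged, while 7 lost and 9 gained the call and 4 reversed. Unchanged means the same direction and call, or no call in either form, whatever the direction. Reversed means that the direction changed and the value was called in either form. The reversed values were, with median-of-ratios scaling, 0.21 for Fos in LPS+4-OHE1 against 4-OHE1 at 6 h, 0.29 for Fosl2 and 0.34 for Jund in LPS against 4-OHE1 at 6 h and 0.29 for Fos in LPS against control at 24 h. The last was 0.28 in the authors' deposited table too. Scaling called 4321 genes in LPS+4-OHE1 against 4-OHE1 at 6 h, against 6701 as deposited.

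With 1 library left out, 2 to 5 members were called in LPS+4-OHE1 against 4-OHE1 at 6 h (main 4), 1 to 2 members in 24 h against 6 h control (main 2; 1 with voom), and 273 to 691 genes in that comparison of times (main 532). The lowest count came without 24 h control replicate 3. The counts were 281, 303, 293 and 302 without 24 h control replicates 2 and 1 and 6 h control replicates 2 and 1.

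Same-numbered libraries showed no general tendency to deviate together: over 36 pairs, r ran from -0.142 to 0.272 and 2 pairs exceeded 0.1. Both of these joined LPS and 4-OHE1 at 24 h, replicate 2 (0.272) and replicate 3 (0.270), while replicate 1 gave 0.027. Crossing replicates 2 and 3 of these groups gave -0.198 and -0.313. A replicate block left 188 of 189 member results as they were and added Atf3 in LPS against control at 24 h (-0.20, adjusted p = 0.043). Depth limits Fosb under LPS (4 and 3 reads) and Batf under 4-OHE1 at 6 h (10 reads).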
